A study of Mus musculus with 8 samples.

Results

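The genes described here are 34 protein-coding genes of skeletal muscle, measured in 8 libraries of mouse liver. They are the rows whose Ensembl identifier carries 1 of 34 listed symbols in the GENCODE annotation of GRCm38, 34 of the 23006 rows in the count table. The list was drawn up from these same libraries, because several of its genes stood at the top of the falls against control. The levels in control against the other groups are therefore given as a description, without a test, and support nothing about the genes. Every member was found in the table, and 33 of the 34 passed the filter on low counts, in most cases through the control libraries where they are high.

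The libraries fall into 4 groups of 2. The SLIT2+APAP group, labelled Double by the submitters, received the guidance protein SLIT2 (3 days of intraperitoneal injection at 2 µg per mouse) and the drug acetaminophen, or APAP (400 mg/kg). The APAP group received PBS and 400 mg/kg of APAP, the SLIT2 group received SLIT2 alone on the same schedule, and the control group received PBS only. Livers of the APAP-treated mice were taken 24 hours after the drug. All 8 libraries are labelled wild type, liver and total RNA. Strain, sex and age, and whether each library is a separate mouse, are not given in the labels used here, so the p-values below measure only the spread between these libraries, which may be technical.

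Skeletal muscle contracts as myosin thick filaments slide along actin thin filaments inside sarcomeres, whose ends are anchored at Z-discs. Troponin and tropomyosin on the thin filament open myosin-binding sites when calcium is released from the sarcoplasmic reticulum, and calcium pumps then clear it. Fast and slow fibres use different isoforms of these proteins, encoded by separate genes, and hepatocytes are not known for making a sarcomere. In bulk tissue, fewer cells of a type and less RNA per cell cannot be told apart, and neither can muscle RNA from another tissue in the sample and muscle transcripts made within the liver.

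Promoters of 4 members are shown, Myh4, Acta1 and Ckm as examples of the myosin, actin and creatine kinase genes described below, while Eno3 is 1 of the few members with a clear level outside control. The sequences are from RefSeq on GRCm38.p6 and run from 250 bases before to 50 after the start of transcription, with the gene's own strand written 5′ to 3′. Capitals mark matches to the E-box CANNTG, the site of the MyoD family of muscle factors, and to the MEF2 and CArG motifs, searched on both strands. Myh4 lies at chr11:67237562-67237861 on the plus strand, Acta1 at chr8:123894726-123895025 on the minus strand, Ckm at chr7:19410844-19411143 on the plus strand and Eno3 at chr11:70656926-70657225 on the plus strand.
Myh4: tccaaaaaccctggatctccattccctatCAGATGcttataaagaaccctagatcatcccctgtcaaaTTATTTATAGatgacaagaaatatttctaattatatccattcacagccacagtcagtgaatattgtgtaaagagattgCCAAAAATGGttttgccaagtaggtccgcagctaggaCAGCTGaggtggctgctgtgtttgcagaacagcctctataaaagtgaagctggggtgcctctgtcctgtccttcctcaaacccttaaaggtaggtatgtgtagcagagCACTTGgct
Acta1: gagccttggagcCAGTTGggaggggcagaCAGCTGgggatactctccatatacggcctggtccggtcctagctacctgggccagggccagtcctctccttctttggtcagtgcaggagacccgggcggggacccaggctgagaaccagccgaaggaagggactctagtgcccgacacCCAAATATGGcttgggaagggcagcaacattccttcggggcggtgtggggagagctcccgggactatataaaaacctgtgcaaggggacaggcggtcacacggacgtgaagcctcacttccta
Ckm: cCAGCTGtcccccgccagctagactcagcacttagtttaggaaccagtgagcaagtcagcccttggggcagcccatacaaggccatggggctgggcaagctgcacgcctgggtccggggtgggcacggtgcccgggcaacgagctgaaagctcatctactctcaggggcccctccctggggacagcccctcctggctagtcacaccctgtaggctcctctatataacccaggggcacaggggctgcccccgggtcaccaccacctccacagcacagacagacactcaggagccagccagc
Eno3: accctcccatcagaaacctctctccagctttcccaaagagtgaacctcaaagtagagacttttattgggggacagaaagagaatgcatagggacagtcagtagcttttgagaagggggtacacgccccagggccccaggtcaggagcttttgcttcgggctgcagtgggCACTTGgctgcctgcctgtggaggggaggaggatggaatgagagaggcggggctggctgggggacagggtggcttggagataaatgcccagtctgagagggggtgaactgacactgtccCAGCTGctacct
RefSeq promoters were matched for 26 of the 34 members, 31 promoters in all. The E-box CANNTG, which is its own reverse complement in form, was in 83.9% of the member promoters and in 72.3% of all 32851 promoters of the same length. Its variant CAGCTG, counted within the E-box matches as well, was in 58.1% of member promoters and in 16.3% of all. A MEF2 match was in 19.4% against 3.19%, and a CArG match in 6.45% against 1.63%. These are matches of letters and not binding sites.

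The 8 libraries held between 60823534 and 100543754 counts. Hepatocyte marker genes (Alb, Apoa1, Ttr and 6 others found of 10 listed) were present in all of them, at 8.12% and 8.14% of counts in SLIT2+APAP, 11.3% and 10.6% in APAP, 1.57% and 0.745% in SLIT2 and 5.39% and 7.55% in control. The 13 mitochondrially encoded protein genes took 25.1% and 30.3% of counts in SLIT2+APAP, 14.9% and 13.4% in APAP, 60.2% and 69% in SLIT2 and 16% and 17.3% in control. The SLIT2 libraries therefore stand apart in both measures, and they hold the fewest counts outside the mitochondrial genes. Sums over genes are given below as plain CPM, counts per 1000000 counts of the library, and single genes as counts or as CPM with library sizes scaled by TMM (trimmed mean of M values).

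Muscle gene transcripts were abundant in 1 library, clearly present in a second, and near the detection limit for most members in the other 6. The 34 genes summed to 1943 and 2271 counts in SLIT2+APAP, 1334 and 1365 in APAP, 3705 and 3551 in SLIT2, and 147859 and 20160 in control. As a share, this is 26.4 and 27.1 plain CPM in SLIT2+APAP, 15.6 and 13.8 in APAP, 58.6 and 58.4 in SLIT2, and 1549.6 and 200.5 in control. These sums lie close to each other within each treated group, whereas the 2 control libraries differ by several-fold. Neb and Eno3 made up 36.4% to 85.7% of the sum in each treated library. The 26 members with at most 60 counts in each library outside control were less even. They summed to 1.25 and 3.84 plain CPM in SLIT2+APAP, 2.28 and 0.979 in APAP, 2.66 and 1.92 in SLIT2, and 1194.8 and 143.1 in control. By CPM, control 1 was the highest library for 32 members, and for 30 members control 1 came first and control 2 second. Scaled to the counts outside the mitochondrial genes, these numbers were 31 and 28.

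**Figure D1:**
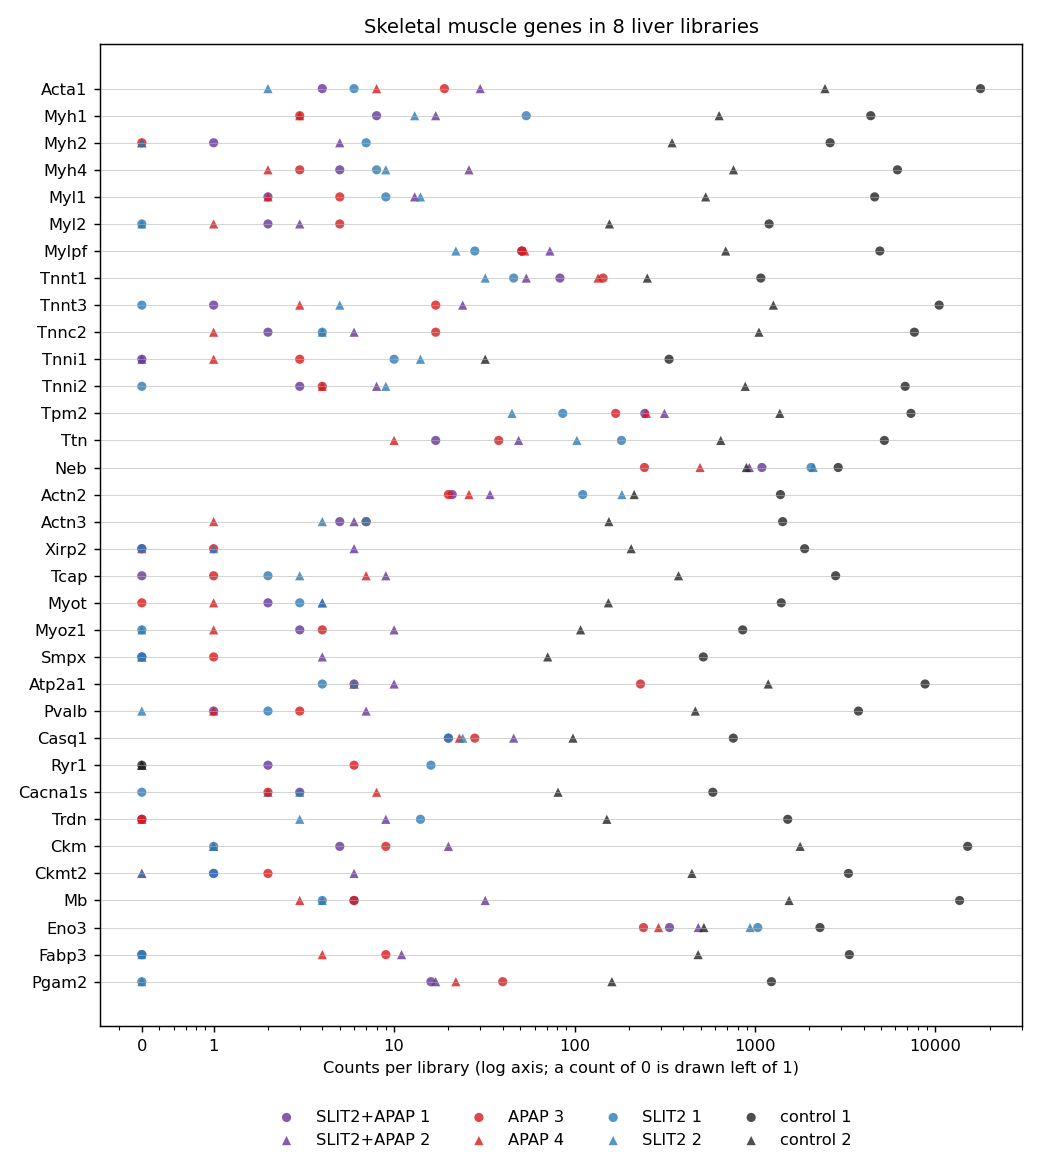
Raw counts of each of the 34 members in each library, on a log axis with a count of 0 drawn left of 1; colours are groups and shapes the 2 libraries of a group. Both control libraries lie to the right of the other 6 for most genes, with Neb, Eno3, Tpm2, Tnnt1 and Actn2 the clearest cases of counts outside control.

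Among the 13 thick and thin filament members, Acta1, the skeletal muscle actin (chr8:123891769-123894751, minus strand), had 4 and 30 counts in SLIT2+APAP, 19 and 8 in APAP, 6 and 2 in SLIT2, and 17772 and 2442 in control. Myh4, the IIb myosin heavy chain of the fastest fibres (chr11:67238029-67260446, plus strand), had 5 and 26 counts in SLIT2+APAP, 3 and 2 in APAP, 8 and 9 in SLIT2, and 6159 and 760 in control. Tnnt3, fast troponin T, had 1 and 24 counts in SLIT2+APAP, 17 and 3 in APAP, 0 and 5 in SLIT2, and 10483 and 1264 in control. Both control libraries are above all 6 others for each of these genes, with no overlap, and SLIT2+APAP 2 is the highest of the 6 for all 3 genes. Myh1, Myh2 and Myh4 are near-identical genes side by side on chromosome 11, so the split of counts among them is uncertain. The troponins Tnnc2 (7644 and 1052 counts in control) and Tnni2 (6795 and 883), which bind calcium and hold back the filament in fast fibres, did not exceed 17 and 9 counts in any other library. Myl1, the fast essential light chain, had 4604 and 533 counts in control and at most 14 elsewhere. Myh1 and Myh2, the IIx and IIa heavy chains, had 4379 and 633 and 2608 and 347 counts in control, and at most 54 and 7 elsewhere.

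The 3 slow-fibre members also had their highest counts in the control libraries. Tnni1, slow troponin I, had 0 and 0 counts in SLIT2+APAP, 3 and 1 in APAP, 10 and 14 in SLIT2, and 334 and 32 in control. Tnnt1, slow troponin T, had 83 and 54 counts in SLIT2+APAP, 144 and 135 in APAP, 46 and 32 in SLIT2, and 1077 and 253 in control. Myl2, the regulatory light chain of slow and cardiac myosin, had 2 and 3 counts in SLIT2+APAP, 5 and 1 in APAP, 0 and 0 in SLIT2, and 1197 and 156 in control. Tnnt1 had at least 32 counts in every library, and the other slow-fibre members at most 14 outside control.

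Of the 9 members of the Z-disc, the giant filaments and their scaffold, Ttn, the molecular spring titin, had 17 and 49 counts in SLIT2+APAP, 38 and 10 in APAP, 182 and 103 in SLIT2, and 5212 and 646 in control. Tcap, which caps titin at the Z-disc, had 0 and 9 counts in SLIT2+APAP, 1 and 7 in APAP, 2 and 3 in SLIT2, and 2798 and 377 in control. Xirp2, Myot, Myoz1, Smpx and Actn3, proteins of the Z-disc and its attachments, had at most 10 counts in each library outside control, against 517 to 1884 counts in control 1 and 71 to 206 in control 2. Neb and Actn2 behaved otherwise and are described below.

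Of the 6 calcium-handling members, Atp2a1, the fast-fibre calcium pump SERCA1, had 6 and 10 counts in SLIT2+APAP, 232 and 6 in APAP, 4 and 6 in SLIT2, and 8762 and 1184 in control. Pvalb, the calcium buffer parvalbumin of fast fibres, had 1 and 7 counts in SLIT2+APAP, 3 and 1 in APAP, 2 and 0 in SLIT2, and 3743 and 467 in control. Ryr1, the calcium release channel, had 2 and 0 counts in SLIT2+APAP, 6 and 0 in APAP, 16 and 0 in SLIT2, and 0 in both control libraries, so it does not follow the other members and was too low to test. Cacna1s, the voltage sensor that opens it, had 584 and 81 counts in control and at most 8 elsewhere. Trdn, the triadin of the release complex, had 1518 and 151 counts in control and at most 14 elsewhere. Casq1, the fast-fibre calcium store protein, had 758 and 98 counts in control and kept between 20 and 46 in each of the other libraries. A count of 0 allows up to 3 counts, which is 0.0298 to 0.0493 plain CPM over these libraries, and covers counting error only.

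Of the 6 members of energy supply, Ckm, muscle creatine kinase (chr7:19404776-19422841, plus strand), had 5 and 20 counts in SLIT2+APAP, 9 and 1 in APAP, 1 and 1 in SLIT2, and 15080 and 1779 in control. Mb, the oxygen store myoglobin, had 6 and 32 counts in SLIT2+APAP, 6 and 3 in APAP, 4 and 4 in SLIT2, and 13614 and 1545 in control. Fabp3, a fatty acid carrier of heart and muscle, had 0 and 11 counts in SLIT2+APAP, 9 and 4 in APAP, 0 and 0 in SLIT2, and 3333 and 484 in control. These genes separate control from the rest without overlap. Ckmt2, the mitochondrial creatine kinase, had 3294 and 447 counts in control and at most 6 elsewhere, and Pgam2, the muscle phosphoglycerate mutase, had 1233 and 161 in control and 0 to 40 elsewhere. Per length, the members with the highest level in control 1 were Acta1 at 137.9, Tnnc2 at 113.9, Mb at 108.7, Tnnt3 at 78.9 and Ckm at 61.7 CPM per kb of exon. Ttn was lowest among those counted in control, at 0.532 CPM per kb, with a summed exon length of 116825 bases that overstates any single transcript.

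The 2 control libraries differed by nearly the same factor for most members. Pooled over the members, control 1 was 7.73 times control 2 in plain CPM (95% exact binomial interval 7.62 to 7.84, counting error only). Over the 33 members with counts in control, the ratio had a median of 8.07 and ran from 3.4 for Neb to 11 for Tnni1, with 29 members between 6 and 11. The exceptions, Neb at 3.4, Tnnt1 at 4.49, Eno3 at 4.63 and Tpm2 at 5.62, are 4 of the members with counts in every other library. The interval of 19 members held the pooled ratio, that of 4 lay below it and that of 10 above it. Across these 33 genes, which share the same 2 libraries and are not independent, log2 CPM in control 1 and control 2 had a Pearson r of 0.974 and a Spearman rho of 0.955. Among all 11231 genes with a mean of at least 1 CPM in control, the median ratio was 0.933, and 82 genes (0.73%) had a ratio of at least 6, of which 29 are members.

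**Figure D2:**
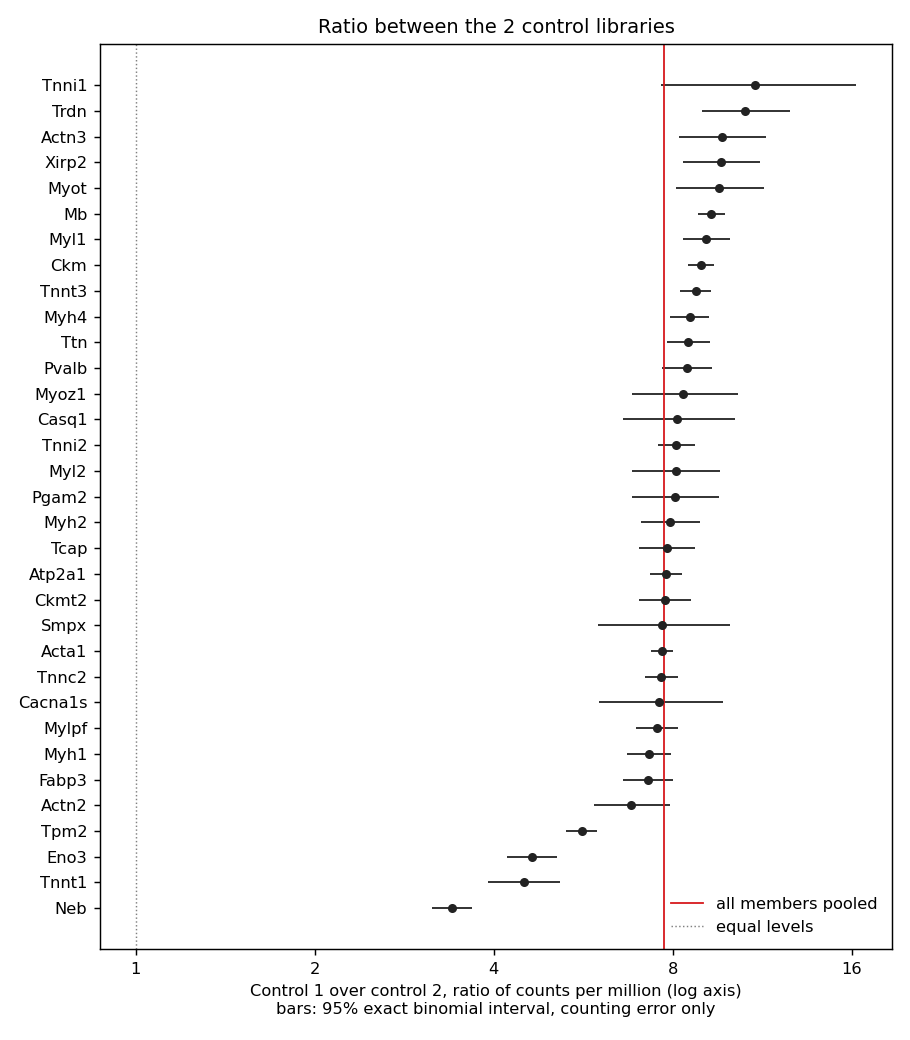
Ratio of control 1 to control 2 in plain CPM for 33 members, on a log axis, with 95% exact binomial intervals for counting error; the red line is the pooled ratio of 7.73 and the dotted line equal levels. Most points lie between 6 and 11, and Neb, Tnnt1, Eno3 and Tpm2 lie to the left.

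In both control libraries, fast-fibre genes took most of the counts of the fast and slow member lists. These lists hold 13 fast and 3 slow genes, and the myosin set is uneven as well. List size alone therefore raises the shares, which are not read as fibre composition. The 13 fast-fibre members took 96.0% (exact binomial 95% interval 95.9 to 96.2) of the counts of the fast and slow lists in control 1 and 94.9% (94.4 to 95.3) in control 2, or 96.9% and 96.0% per kb of exon. With myosin heavy chains alone (Myh1, Myh2 and Myh4 against slow Myh7, which is not a member) the fast share was 91.3% in control 1 and 89.8% in control 2. Per kb, Myh4, Myh1, Myh2 and Myh7 made up 46.1%, 31.0%, 16.4% and 6.5% of the 4 in control 1, and 42.5%, 33.5%, 16.3% and 7.72% in control 2, so the order is the same in both libraries. When slow-fibre genes outside the members were added to the slow list, the fast share was 79.2% and 39.4%, because Atp2a2 and Tpm3, which many tissues express, had 5950 and 4216 counts in control 1 and 7470 and 4025 in control 2. In the other libraries the fast share of the member lists was 56.0% and 81.5% in SLIT2+APAP, 71.1% and 42.2% in APAP, and 71.9% and 70.5% in SLIT2, from far fewer counts.

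**Figure D3:**
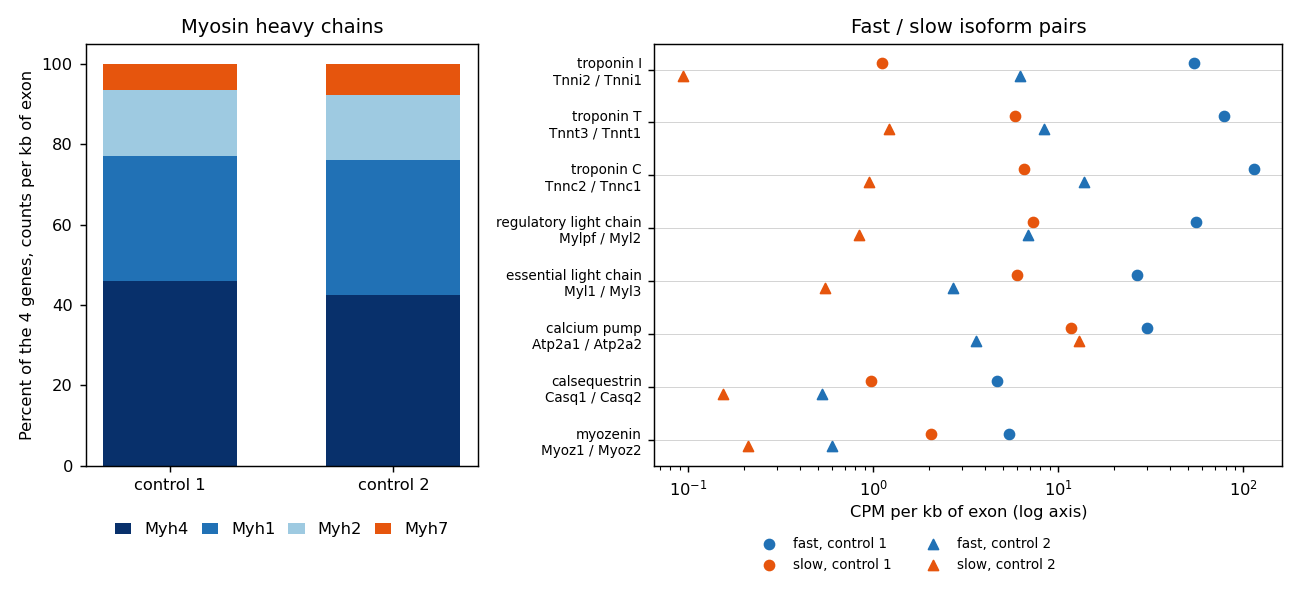
Left, share of 4 myosin heavy chain genes in each control library, in percent of counts per kb of exon; right, level of the fast (blue) and slow (orange) gene of 8 isoform pairs in CPM per kb on a log axis, circles for control 1 and triangles for control 2. The fast gene is above the slow one in each pair in both libraries, except for the calcium pump pair in control 2.

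Among isoform pairs, fast troponin I (Tnni2) stood at 54.1 and 6.2 CPM per kb in control, against 1.11 and 0.0934 for slow Tnni1. Fast troponin C (Tnnc2) stood at 113.9 and 13.8 CPM per kb, against 6.5 and 0.949 for slow Tnnc1. These are the most skewed pairs. Fast over slow per kb was 13.6 and 6.96 for troponin T and 7.55 and 8.1 for the regulatory light chain. It was 4.42 and 4.91 for the essential light chain, 4.77 and 3.44 for calsequestrin and 2.61 and 2.87 for myozenin. The fast pump Atp2a1 was at 30 and 3.58 CPM per kb and the widely expressed Atp2a2 at 11.7 and 12.9, so this pair alone changes order between the 2 libraries. Atp2a2 itself was near equal in both.

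Outside control, the members were of a different makeup. In each of the 6 libraries, 12 members had at most 10 counts and 26 had at most 60. Those 26 summed to 92 and 321 counts in SLIT2+APAP, 195 and 97 in APAP, 168 and 117 in SLIT2, and 114007 and 14386 in control. Neb and Eno3 together made up 73.5% and 62.3% of the member counts in SLIT2+APAP, 36.4% and 57.7% in APAP, 83.1% and 85.7% in SLIT2, and 3.5% and 7.03% in control. The 8 members over 60 counts in some treated library were Mylpf, Tnnt1, Atp2a1, Ttn, Neb, Tpm2, Actn2 and Eno3.

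Neb, which encodes nebulin, the ruler of the thin filament (chr2:52136647-52378474, minus strand), had 1092 and 930 counts in SLIT2+APAP, 244 and 496 in APAP, 2044 and 2104 in SLIT2, and 2891 and 896 in control. In CPM this is 13.7 and 9.51 in SLIT2+APAP, 3.04 and 4.82 in APAP, 30.1 and 38.1 in SLIT2, and 34.5 and 9.42 in control. Its highest CPM was in SLIT2 2, and the SLIT2 values lie inside or above the control range. Eno3, the muscle enolase of glycolysis, which other tissues also express (chr11:70657202-70662513, plus strand), had 336 and 485 counts in SLIT2+APAP, 241 and 292 in APAP, 1036 and 939 in SLIT2, and 2291 and 521 in control. Actn2, an actin cross-linker of the Z-disc, had 21 and 34 counts in SLIT2+APAP, 20 and 26 in APAP, 111 and 183 in SLIT2, and 1384 and 214 in control. For all 3 genes the SLIT2 libraries are above the SLIT2+APAP and APAP libraries without overlap. As plain CPM of the counts outside the mitochondrial genes, Neb was at 81.3 and 111.6 in SLIT2 and 36.1 and 10.8 in control. Eno3 was then at 41.2 and 49.8 in SLIT2 and 28.6 and 6.26 in control. On that scale SLIT2 was above both control libraries for Neb and Eno3. Actn2, at 4.41 and 9.71 in SLIT2, lay between its control values of 17.3 and 2.57. Tpm2 is a tropomyosin that smooth muscle also makes. It had 245 and 315 counts in SLIT2+APAP, 169 and 250 in APAP, 86 and 45 in SLIT2, and 7316 and 1372 in control. By raw counts its lowest libraries were those of SLIT2. As plain CPM of the counts outside the mitochondrial genes, Tpm2 was at 2.32 and 2.91 in APAP and 3.42 and 2.39 in SLIT2. Its lowest library on that scale was APAP 3. Mylpf, the fast regulatory light chain, ranged from 22 to 73 counts over the 6 treated libraries and had 4919 and 688 counts in control.

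**Figure D4:**
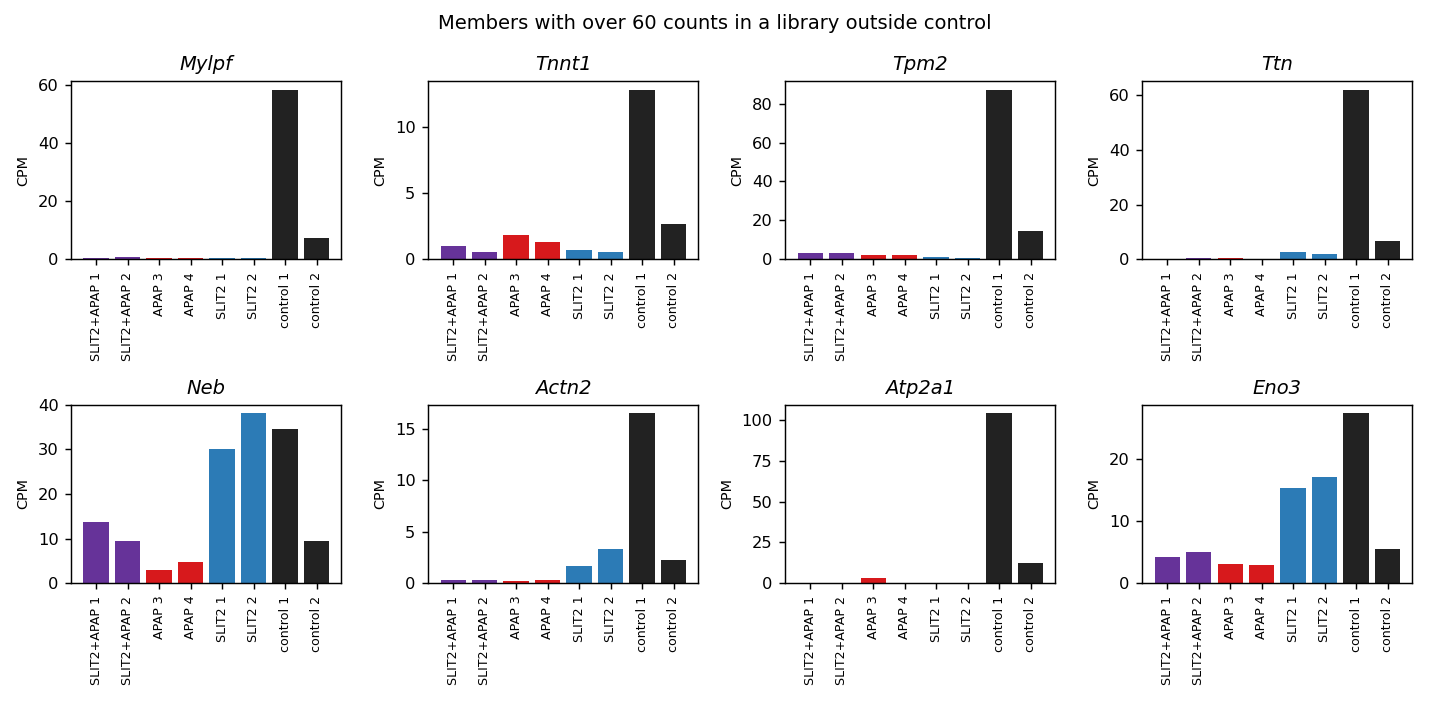
Level in CPM, scaled by TMM library sizes, of the 8 members with over 60 counts in a library outside control; bars are single libraries. Neb and Eno3 have bars in the SLIT2 libraries of a height comparable to control, whereas Mylpf, Ttn and Atp2a1 are highest in control 1, then control 2, and near 0 elsewhere on this scale.

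A few muscle genes were far higher in APAP 3 than in APAP 4, and they were picked after their values were seen. Atp2a1 had 232 counts in APAP 3 and 6 in APAP 4. Of a list of 60 other muscle genes, Pygm, muscle glycogen phosphorylase, had 430 and 38 counts in APAP 3 and APAP 4, Scn4a, the muscle sodium channel, had 175 and 0, and Myom1, an M-band protein, had 177 and 53. The abundant members were not raised alongside, with 19 and 8 counts for Acta1 and 9 and 1 for Ckm. The whole list of 60 went the other way, at 90.8 plain CPM in APAP 3 and 122.8 in APAP 4. In the same library the 7 adipocyte markers summed to 126.7 plain CPM, against 6.77 in APAP 4, and 9831 of those counts were from Cidec, a lipid droplet protein, while Adipoq and Plin1 had 4 and 9 counts. The part of these markers in the muscle values was not tested.

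SLIT2+APAP against APAP sets SLIT2 given with APAP against APAP alone. Neither group is control, but the control libraries enter the filter, the scaling and the shared spread of the fit. No member passed in either direction (0 of 33 tested, with 2 at an unadjusted p under 0.05) in an edgeR quasi-likelihood fit to all 8 libraries, and DESeq2 called 1 member, Neb. Of all 16876 genes tested, the same fit called 13.9%, made up of 6.29% higher and 7.64% lower. Most of the 33 members passed the filter through the control libraries and are near 0 in both groups here, so their count is not read against that share. With only the 4 libraries compared, 12 members were tested and 0 called, and 0.00645% of all genes; without both control libraries it was 1 of 15 (Neb), and 6.43% of all genes. The share of all genes called moved widely with single libraries, to 0.978% without SLIT2+APAP 1, 0.116% without SLIT2+APAP 2 and 34% without APAP 4. The median log2 fold change was 0.47 over the members and -0.06 over all genes. Neb averaged 11.6 ± 2.94 CPM in SLIT2+APAP and 3.93 ± 1.26 CPM in APAP (SD, n = 2 each), a log2 fold change of 1.56 ± 0.55 (SE, edgeR adjusted p = 0.0952), higher in both SLIT2+APAP libraries than in either APAP library. Without control 1 or without control 2 in the fit, Neb was called higher. Atp2a1 had a log2 fold change of -3.99 ± 1.70 (SE, edgeR adjusted p = 0.144), with the 232 counts of APAP 3 beside 6 in APAP 4. Of all genes called, 45.1% were higher, and 61% with scaling by library totals only.

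SLIT2+APAP against SLIT2 sets APAP on top of SLIT2 against SLIT2 alone. Here too the control libraries are outside the contrast but enter the filter, the scaling and the shared spread. Of 33 members tested, 2 fell and 0 rose. Of all genes, 20% were called lower, 20.6% higher and 40.6% in either direction. As above, most of the 33 are near 0 in both groups, and the count is not read against these shares. With only the 4 libraries compared, 7 of 13 members tested were called, 5 lower and 2 higher (Pgam2 and Tpm2), and 55.2% of all genes; without both control libraries it was the same 7 of 15, and 34.3% of all genes. Actn2 averaged 0.305 ± 0.0601 CPM in SLIT2+APAP and 2.47 ± 1.19 CPM in SLIT2 (SD, n = 2 each), a log2 fold change of -3.00 ± 0.90 (SE, edgeR adjusted p = 0.0307). Eno3 averaged 4.58 ± 0.535 CPM in SLIT2+APAP and 16.1 ± 1.22 CPM in SLIT2 (SD, n = 2 each), with a log2 fold change of -1.81 ± 0.61 (SE, edgeR adjusted p = 0.0453). Neb, at 11.6 ± 2.94 CPM in SLIT2+APAP and 34.1 ± 5.63 CPM in SLIT2, missed the threshold (log2 fold change -1.56 ± 0.55, edgeR adjusted p = 0.0525). Scaled to 1000000 counts outside the mitochondrial genes, Eno3 was at 6.08 and 8.31 in SLIT2+APAP and 41.2 and 49.8 in SLIT2, and a fit without the mitochondrial genes called the same 2 members. In the same comparison 8 of 9 hepatocyte markers rose, and 3 of 6 heart genes tested fell (Tnni3, Ryr2 and Nppa), with the heart list at 1.27 and 1.94 plain CPM in SLIT2+APAP and 3.71 and 4.92 in SLIT2. Myh6, which defines heart muscle, was at 0 in both SLIT2+APAP libraries and had 11 and 0 counts in SLIT2. The part of these markers in the member calls was not tested. Both calls were lost when any 1 of the 6 treated libraries was left out. Without control 1 the fit called 7 members, 5 lower and 2 higher, and without control 2 it called 8, 6 lower and 2 higher, with Neb among the lower and Pgam2 and Tpm2 the higher in each.

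Of the 60 other muscle genes, 57 were tested in these comparisons. In SLIT2+APAP, 2 rose and 1 fell against APAP, and 0 rose and 5 fell against SLIT2. Of all genes, 13.9% were called against APAP and 40.6% against SLIT2. Each treated library had 0 counts for 7 to 21 of the 60 genes, so these numbers are not read against those shares. Jph1 and Mss51 were the 2 that rose, and Myom1, at 0 counts in both SLIT2+APAP libraries and 177 and 53 in APAP, was the 1 that fell. The 5 that fell against SLIT2 were Klhl31, Klhl41, Mylk4, Phkg1 and Mss51. Mss51, a muscle mitochondrial protein, had a log2 fold change of 1.94 ± 0.38 against APAP (SE, edgeR adjusted p = 0.0193) and of -1.87 ± 0.35 against SLIT2 (edgeR adjusted p = 0.00479). Klhl41 and Klhl31, kelch proteins of muscle, fell against SLIT2 by 2.43 ± 0.81 and 2.60 ± 0.65 on the log2 scale (SE, edgeR adjusted p = 0.0434 and 0.0151). Myh8, the perinatal myosin heavy chain, had 82 and 161 counts in SLIT2+APAP, 35 and 33 in APAP, 425 and 397 in SLIT2, and 38 and 56 in control. It rose against APAP (log2 fold change 1.83 ± 0.38, edgeR adjusted p = 0.0223) and fell against SLIT2 (-2.32 ± 0.35, edgeR adjusted p = 0.0021), and its control libraries were among the low ones, unlike those of the adult myosins. Of 8 slow-fibre genes outside the members, Atp2a2 rose against SLIT2 (log2 fold change 0.89 ± 0.30, edgeR adjusted p = 0.0433), and none was called against APAP.

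Against control, the comparisons that showed these genes, 26 of 33 members were called lower in SLIT2+APAP, 21 in APAP and 30 in SLIT2, and 0 higher in each. Of all genes, SLIT2+APAP called 1.45% lower and 0.717% higher (2.16% in all), APAP 0.456% lower and 0.332% higher (0.788% in all), and SLIT2 27.6% lower and 27.3% higher (54.9% in all). These comparisons share the control libraries and the members were chosen on them, so the counts are a description. The median log2 fold change of the members was -8.02 in SLIT2+APAP, -8.71 in APAP and -8.23 in SLIT2, and that of all genes was 0.04, 0.05 and 0. Members were 27.3% of the 77 genes called lower in APAP, and members and other listed muscle genes together were 44.2%. Acta1 had a log2 fold change of -9.31 ± 1.26 in SLIT2+APAP, -9.60 ± 1.28 in APAP and -10.81 ± 1.41 in SLIT2 (SE). Neb had -0.92 ± 0.54 in SLIT2+APAP, -2.48 ± 0.57 in APAP and 0.64 ± 0.54 in SLIT2, and Eno3 had -1.84 ± 0.61, -2.49 ± 0.63 and -0.02 ± 0.59 in the same groups. The spread within control was wide, as for Acta1 at 118.7 ± 131.6 CPM and Neb at 21.9 ± 17.7 CPM (SD, n = 2). Without SLIT2 1, SLIT2 2, SLIT2+APAP 1 or SLIT2+APAP 2, the fit called 0 members in SLIT2+APAP or APAP, with 31 to 33 at an unadjusted p under 0.05. Without control 1 it called 12 in SLIT2+APAP and 14 in APAP, and without control 2 it called 32 in each. Without APAP 3 the counts were 26 in SLIT2+APAP and 2 in APAP, and without APAP 4 they were 16 and 11. In SLIT2, the calls were mostly lower when any 1 library was left out. Eno3 and Neb were called higher without control 1, and Ryr1 without SLIT2 2.

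Marker lists of other tissues had median ratios between the control libraries nearer to 1. The median ratio of control 1 to control 2 was 5.49 over other muscle genes (59 of 60 with counts in both control libraries, as asked of every list here) and 6.12 over 8 slow-fibre genes, as against 1.05 for heart muscle (6 of 10), 0.524 for smooth muscle, 1.6 for adipocytes, 1.53 for mesothelium, 1.54 for peripheral nerve, 0.829 for red cells and 0.886 for hepatocytes. Single genes spread widely, from 0.946 to 40 in the other muscle list, 0.839 to 10.1 in the slow-fibre list and 0.222 to 7.11 in smooth muscle. Control 1 came first and control 2 second for 33 of the 60 other muscle genes. In the heart list the high one was Myl3 at 10.1, a light chain that slow skeletal fibres share, while Myh6 and Mybpc3, defining genes of heart muscle, had at most 1 count in either control library. A list of 10 genes of muscle identity and the neuromuscular junction summed to 255 and 433 counts in SLIT2+APAP, 132 and 152 in APAP, 395 and 416 in SLIT2, and 785 and 305 in control. Most of these were from Mef2c, a factor that other tissues also express, with 702 and 282 counts in control. The median ratio of control 1 to control 2 was 2.99 over the 6 genes with counts in both. Of the factors of the MyoD family, Myod1 had 5 and 1 counts in control 1 and control 2, Myog 5 and 0, Myf5 6 and 2, and Myf6 29 and 3, and Pax7, the marker of muscle stem cells, had 2 and 0. Of 4 genes of this list tested, 0 were called in SLIT2+APAP against APAP, and Chrna1, a subunit of the acetylcholine receptor, fell in SLIT2+APAP against SLIT2. Of all genes, 13.9% were called against APAP and 20% were called lower against SLIT2. The calls are not read as a result about this list. The smooth muscle list summed to 13.4 and 20.2 plain CPM in control, higher in control 2.

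**Figure D5:**
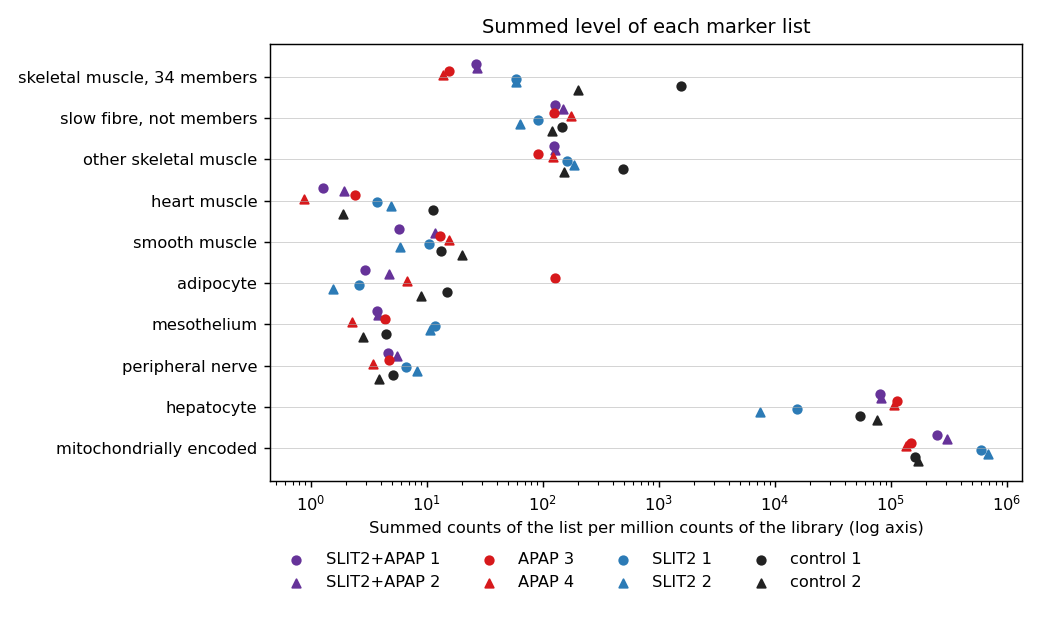
Summed counts of each marker list per 1000000 counts of the library, on a log axis, with the groups in colour and the 2 libraries of a group as circle and triangle. Control 1 lies far to the right for the 34 members. It is also the highest for the other muscle genes, at 488.6 plain CPM. There control 2, at 153.5, is below both SLIT2 libraries, at 162.8 and 185.0. APAP 3 stands out for the adipocyte list, mostly through Cidec, and the SLIT2 libraries for hepatocyte and mitochondrial genes.

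Genes with a pattern over the 8 libraries like that of the members were picked by a fixed rule, which the members themselves could meet. With at least 5 CPM in control 1, at least 4 times the level of control 2 there, and at least 4 times the highest other library in control 2, 38 of 8043 genes qualified. Of these, 25 are members, 11 are in the other muscle or slow-fibre lists and 2, Apobec2 and Flnc, are in no list. The members were chosen on these libraries, and the lists with earlier results known. The share of muscle genes here is therefore a description and supports nothing. Those with the highest CPM in control 1 outside the members included Cox6a2, Cox8b, Mybpc2, Cmya5, Mybpc1, Ldb3, Myl3, Nrap, Eef1a2, Txlnb and Apobec2. Cox6a2, the muscle subunit of cytochrome oxidase, had 8 and 18 counts in SLIT2+APAP, 7 and 5 in APAP, 5 and 0 in SLIT2, and 1873 and 198 in control. Mybpc2, fast myosin-binding protein C, had 3 and 4 counts in SLIT2+APAP, 8 and 7 in APAP, 0 and 6 in SLIT2, and 1371 and 194 in control.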

How the data were processed

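RNA-seq gene counts of 8 mouse liver libraries formed the data. The deposited table holds whole-number counts per Ensembl identifier, not normalized by the authors, and per the labels' protocols the libraries were made from total RNA with a directional kit. Per the submitters' processing notes, STAR 2.5.4, Cufflinks, Cuffdiff 2.2.1 and mm10 were used; how reads were counted, with which annotation, and how strand and multi-mapping reads were handled is stated in none of the sources used here. Another annotated gene overlaps 18 members, so antisense reads could be counted with them.

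Symbols, coordinates and exon lengths came from GENCODE M21 (22341 of 23006 identifiers matched). With R 4.3.3, edgeR 4.0.16 fitted 1 mean per group to all 8 libraries (filterByExpr, TMM, quasi-likelihood, robust), with 4 residual degrees of freedom and Benjamini-Hochberg adjustment over 16876 genes; a call is an adjusted p under 0.05. The fit was tried on simulated counts with 200 changed genes. For SLIT2+APAP against APAP it found 64% of 4-fold and 6% of 2-fold changes, and 8 of 78 calls were false. For SLIT2+APAP against SLIT2 it found 56% and 3%, and 12 of 71 calls were false. Most 2-fold changes were thus missed, and the false share was above the threshold of 0.05. DESeq2 1.42.0, other scalings and filters, fewer libraries and a replicate block were alternatives. Intervals are exact at 95% (scipy 1.17.1) and cover counting error only. All 34 members are named, with genes from the 12 most like them by the stated rule, of which 1 is not reported here. The members and lists were chosen with earlier results of these data known.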

Additional observations from a re-analysis of the deposited data

How the results depend on the processing

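With 2 libraries a group the calls depend on the fit. In SLIT2+APAP against APAP, 0 members were called, and 1 (Neb) with DESeq2 or without both control libraries, a fit added after seeing the data; leaving out 1 library gave 0 to 1. In SLIT2+APAP against SLIT2, 2 members were called, against 1 with library totals only, 0 without a count filter, and 7 with DESeq2 (3 higher, 4 lower) and with the 4 libraries compared alone or without both controls (2 higher, 5 lower in each); leaving out 1 library gave 0 to 8, of which up to 2 were higher. In APAP against control, 21 members were called, against 33 with DESeq2, 10 with edgeR's legacy fit and 0 with the 4 libraries alone, without both SLIT2 or without both SLIT2+APAP libraries; leaving out 1 gave 0 to 32. In SLIT2+APAP against control, 26 were called, against 0 with the 4 libraries alone or without both SLIT2 libraries; leaving out 1 gave 0 to 32. SLIT2 against control had 30 calls, all lower, and 26 to 31 when 1 library was left out, of which 2 were higher without control 1 (Eno3 and Neb) and 1 without SLIT2 2 (Ryr1). The causes were not tested. For several settings, among them DESeq2, the legacy fit and the replicate block, the share of all genes called is not given. The member counts there are not read as a result about the members.

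The share of all genes called also moved with single libraries. It ran from 0.116% (without SLIT2+APAP 2) to 34% (without APAP 4) in SLIT2+APAP against APAP, and from 15.5% (without SLIT2+APAP 1) to 54.2% (without APAP 3) in SLIT2+APAP against SLIT2. It ran from 0.0111% (without SLIT2+APAP 2) to 14.3% (without APAP 3) in SLIT2+APAP against control, from 0% (without either SLIT2 library) to 28.7% (without APAP 4) in APAP against control, and from 34.8% (without control 1) to 65.5% (without APAP 3) in SLIT2 against control.

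Replicate numbers did not pair the samples (correlations of deviations 0.07, -0.07 and -0.01 over 16876 genes). With the replicate block on 6 libraries, 2 members were called in SLIT2+APAP against SLIT2 (Pgam2 higher and Tnni1 lower; 0 without the block), 27 in SLIT2 against control and 16 in SLIT2+APAP against control.

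Library totals shifted the median log2 fold change of all genes to 0.12 (-0.06 with TMM) in SLIT2+APAP against APAP, 0.16 (-0.02) in SLIT2+APAP against SLIT2, and 0.34 in SLIT2+APAP and 0.16 in APAP against control. In the last 2 it moved the share of calls that were higher to 68.5% (33.2% with TMM) and 61.4% (42.1%). The pooled ratio of the controls was 7.61 to 8.31 under other denominators and 7.99 without Eno3, Fabp3 and Tpm2.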
